A study of Mus musculus with 20 samples.

Results

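Transcripts of 9 transcription factors of surface epithelia were followed in RNA of the mouse outer eyecup. They were taken by symbol from the 24411 genes of the table, as *Trp63*, *Klf4*, *Klf5*, *Ehf*, *Elf3*, *Grhl1*, *Grhl2*, *Grhl3* and *Ovol1*, and all 9 were among the 18807 genes with at least 5 reads in total. The C57BL/6 mice were WT animals bought from a supplier or *Stra6*-/- knockouts bred by the study, and after weaning they ate a vitamin A sufficient diet (VAS, 4 IU/g) or a deficient one (VAD, 0 IU/g) for 12 weeks. *Stra6* encodes the membrane transporter through which the retinal pigment epithelium (RPE) takes up retinol from the blood. Each of the 4 groups, VAS WT, VAD WT, VAS *Stra6*-/- and VAD *Stra6*-/-, had 5 RNA-seq libraries of RPE and choroid, and by the study's account each library pooled both eyecups of 1 mouse after the anterior segment and neural retina had been taken off.

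Stratified epithelia such as the epidermis, cornea and conjunctiva are kept in their state by a small circuit of DNA-binding proteins. The p63 protein, encoded by *Trp63*, maintains the basal stem and progenitor layer. The Krüppel-like factors KLF4 and KLF5, the ETS factors EHF and ELF3, the grainyhead-like proteins GRHL1 to GRHL3 and the zinc finger protein OVOL1 act on differentiation, cell adhesion and barrier formation in the layers above it or throughout them. The RPE is a simple pigmented epithelium of neural origin and is not known for this circuit. Vitamin A acts on epithelia through retinoic acid and its nuclear receptors, and a dry, keratinized ocular surface is a classic sign of its deficiency.

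Several facts about the libraries bear on every value below. Depth ran from 13331903 to 21878614 reads, with a median of 17785927. *Stra6*, on chromosome 9 from 58063788 to 58153996 of GRCm38, had normalized values of 2414 to 2742 in the VAS WT libraries against 564 to 694 in VAS *Stra6*-/-. On the VAD diet its order was the opposite, with 669 to 1529 in WT and 1973 to 2393 where the label is VAD *Stra6*-/-. By its normalized value *Stra6* was thus not lower in the libraries labelled VAD *Stra6*-/-, which are called by that label only. The sum of 12 RPE markers was also higher in these libraries, at 640485 to 691294. It was 52743 to 111248 in VAD WT and 180397 to 189157 in VAS *Stra6*-/-. The normalized value of *Stra6* alone therefore does not decide on the label, and its level relative to these markers was not tested. In VAD WT, replicates 2 and 4 stood apart from replicates 1, 3 and 5: their values were 10912 and 11767 for *Xist*, which is transcribed from the inactive X chromosome, against 174 to 234. Its range was 7.69 to 38.4 for VAS WT but 15320.2 to 18052 for VAS *Stra6*-/-, while *Ddx3y*, a gene of the Y chromosome, had 981 to 1193 and 0 to 1.02, so that genotype and the sex-linked transcripts cannot be told apart on the VAS diet. In VAD WT *Ddx3y* split the libraries in the opposite way to *Xist*, with 75.2 and 80.5 in replicates 2 and 4 and 1041 to 1133 in replicates 1, 3 and 5. All 5 libraries labelled VAD *Stra6*-/- held both, *Xist* at 3569.8 to 4279.6 and *Ddx3y* at 741 to 969.7, which is at odds with 1 mouse per library. The standard errors and adjusted p below measure spread between libraries. If libraries of a group share mice, they do not measure spread between mice.

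The labelled tissue held much RNA of stratified epithelium. *Krt5*, the keratin of basal layers, had values of 169775 to 205231 in VAS WT, far above the 3907 to 4595 of *Rpe65*, the retinoid isomerase of the RPE. The 7 cornea markers, among them *Krt12* and *Aldh3a1*, summed to 323977 to 425332 for VAS WT, 249725 to 842634 for VAD WT, 544071 to 569277 for VAS *Stra6*-/- and 19009 to 24628 for libraries labelled VAD *Stra6*-/-. The 12 RPE markers summed to 155007 to 172869, 52743 to 111248, 180397 to 189157 and 640485 to 691294 in the same order of groups. The first sum was lowest and the second highest in the libraries labelled VAD *Stra6*-/-. None of the 7 cornea and 12 RPE markers was at 0 in every library of a group. In bulk RNA of this kind, fewer cells of a type and less RNA per cell cannot be told apart, and the part of these cell types in the levels of the 9 factors was not tested.

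The normalized values used here are gene counts divided by 1 size factor per library. The plot of values by library shows the 9 genes on that scale.

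**Figure D1:**
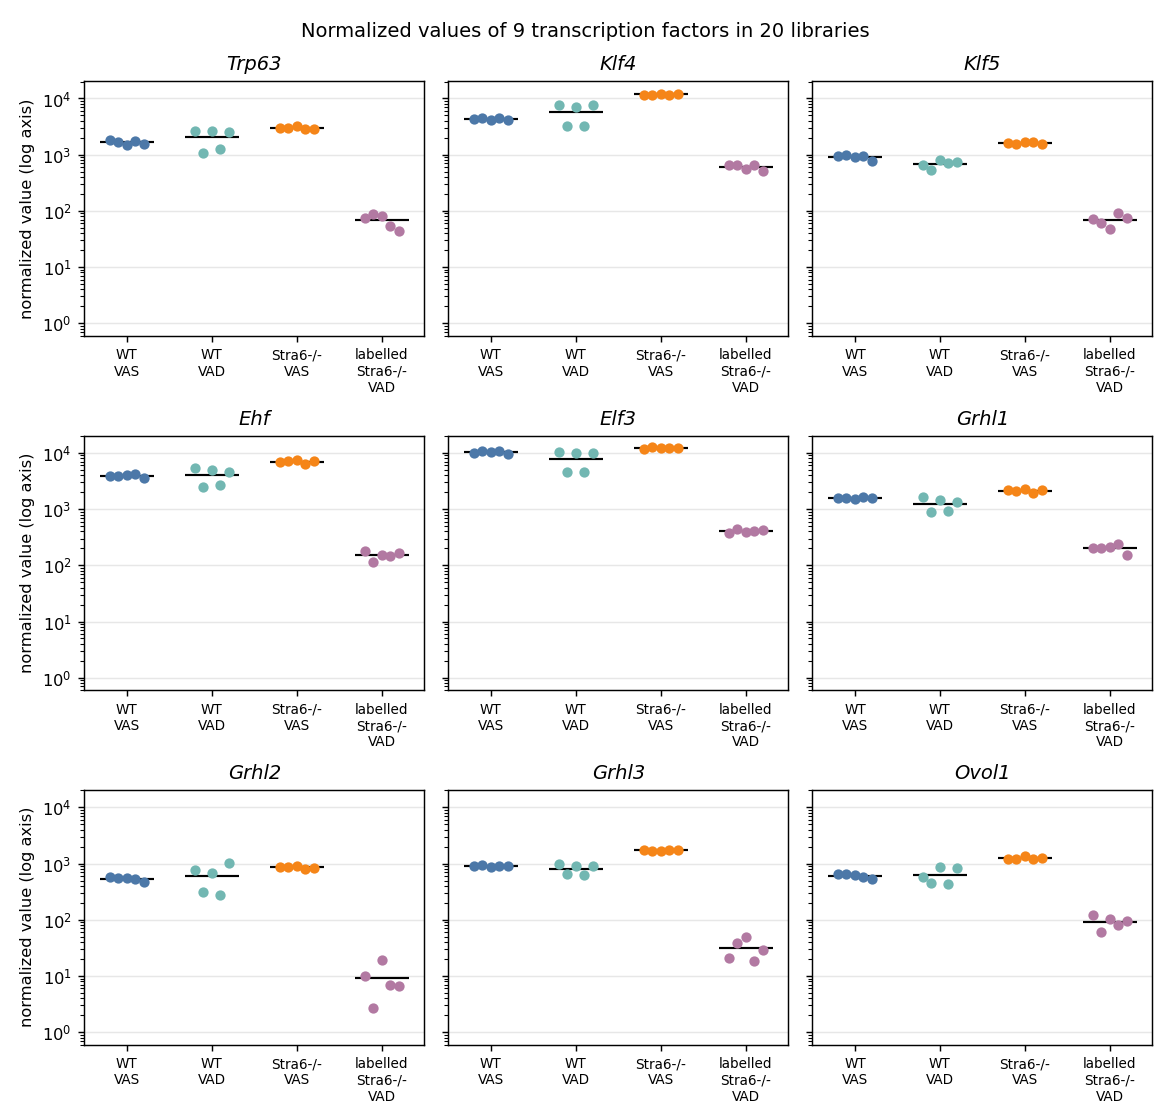
Normalized values of the 9 transcription factors (log axis) in the 5 libraries of each group; points are libraries in the order of their replicate numbers and bars are group means. All 9 genes lie lowest in the libraries labelled VAD Stra6-/-, where Grhl2 falls to between 2.71 and 19.4, and VAD WT splits into replicates 1, 3 and 5 and replicates 2 and 4 for most genes.

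To compare levels between genes, values were divided by the length of all annotated exons in kilobases. In VAS WT the ETS factor *Elf3* led with 4603 per kb, followed by *Klf4* with 1410.3 and *Ehf* with 708 per kb. *Grhl3* (323 per kb) and *Grhl1* (285 per kb) came next, each apart from its neighbours over the 5 libraries. The per-kb levels of *Trp63* (197), *Klf5* (176) and *Ovol1* (175) overlapped from 1 to the next. *Grhl2* was lowest at 62.2 per kb. The order was the same in VAS *Stra6*-/- for the leading 5 genes and for *Grhl2* at the end, while *Ovol1* stood above *Trp63* and *Klf5* by its mean, overlapping with *Grhl1* and *Trp63*. In the libraries labelled VAD *Stra6*-/- the order differed: *Klf4* (167 to 218 per kb) overlapped with *Elf3* (173 to 197 per kb) at the top, *Grhl1* came next at 27.9 to 43.1 per kb, and *Grhl3* and *Trp63* fell to the last places before *Grhl2*. These orders are descriptions and were not tested.

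The promoters of *Klf4* and *Grhl3* are shown because the first gene had the largest rise of the 9 in VAS *Stra6*-/- and the second, of the genes with a window, fell furthest in the libraries labelled VAD *Stra6*-/-. RefSeq windows of GRCm38.p6 were found for 4 of the 9 genes, and the 250 bases before the start of transcription are printed for these 2, with matches to motifs in capitals.
*Klf4*, chr4:55532476-55532725, minus strand: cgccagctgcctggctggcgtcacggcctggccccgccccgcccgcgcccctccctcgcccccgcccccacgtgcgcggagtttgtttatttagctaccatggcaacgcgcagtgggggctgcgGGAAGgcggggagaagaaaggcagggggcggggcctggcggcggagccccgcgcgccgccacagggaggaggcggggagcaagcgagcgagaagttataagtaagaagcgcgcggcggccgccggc
*Grhl3*, chr4:135573633-135573882, minus strand: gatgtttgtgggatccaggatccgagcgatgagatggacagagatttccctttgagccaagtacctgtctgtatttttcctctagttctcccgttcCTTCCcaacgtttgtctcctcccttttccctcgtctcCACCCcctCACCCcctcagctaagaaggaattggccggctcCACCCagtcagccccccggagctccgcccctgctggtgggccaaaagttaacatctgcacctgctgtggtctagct
Both strands were searched for 4 motifs, none of which overlapped another match in these windows. The KLF core CACCC was found 3 times before *Grhl3* and 0 times before *Klf4*, and 52.0% of 32851 windows of this length hold it. The ETS core GGAAG was found 1 time in each window, and 64.1% of all windows hold it. The grainyhead-like motif AACNNGTT (3.64% of all windows) and the retinoic acid receptor half-site AGGTCA (14%) were found in neither. A match is a description of letters and does not show a site in use.

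Without *Stra6* on the sufficient diet, 7 of the 9 factors were higher than in VAS WT. The comparison addresses the lack of the transporter under sufficient vitamin A, but sex-linked transcripts and the source of the mice differed with it. *Klf4*, which drives terminal differentiation of barrier epithelia, had values of 4340.2, 4445, 4185, 4445 and 4086 in VAS WT. They were 11593, 11626, 12152, 11689.5 and 11891 in VAS *Stra6*-/-. Every knockout library was thus more than every WT library, and the rise was 2.74-fold, a log2 difference of 1.46 with standard error 0.20 (adjusted p = 1.04e-05) by limma. Of all 18807 genes, 15.9% were called higher in this comparison and 10.8% lower, 26.6% in all.

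*Ovol1*, a repressor that halts the growth of epithelial progenitors, rose from a range of 540.0 to 654 to one of 1204 to 1351, a log2 difference of 1.03 with standard error 0.18 (adjusted p = 2.27e-04). *Grhl3*, required for the skin barrier and for closure of the neural tube, had 894, 933, 879, 913 and 888 in VAS WT and 1738, 1655, 1675, 1781 and 1735 in VAS *Stra6*-/-. Its groups were far apart relative to their spread, at a log2 difference of 0.93 with standard error 0.19 (adjusted p = 8.79e-04). *Trp63* had 1798, 1713, 1485, 1738 and 1545 in VAS WT and 2963, 2928, 3198, 2865 and 2896 in VAS *Stra6*-/-, a log2 difference of 0.85 with standard error 0.22 (adjusted p = 0.00726). *Klf5*, a factor of proliferating basal cells, rose by 0.83 on the log2 scale from a range of 780.2 to 974 to one of 1540.1 to 1690.0 (standard error 0.13, adjusted p = 8.69e-05). *Ehf*, an ETS factor high in cornea and other barrier epithelia, rose by 0.83 from a range of 3644 to 4190.1 to one of 6443 to 7571 (standard error 0.17, adjusted p = 0.00102). *Grhl1*, known for its hold on desmosomal cadherins, rose least of the 7, by 0.43 (standard error 0.14, adjusted p = 0.0291), from a range of 1504 to 1649 to one of 1938 to 2249. Its call was lost without VAS WT replicate 1, 2, 3 or 5 or VAS *Stra6*-/- replicate 1, 3 or 5, which is 7 of the 20 fits that left out 1 library, with adjusted p from 0.0520 to 0.0649 there.

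The other two did not pass the test in the fit over all groups. *Elf3* had 9805, 10755, 10243, 10727 and 9490.4 in VAS WT and 11721, 12709, 12019, 12209 and 12315 in VAS *Stra6*-/-, a log2 difference of 0.26 with standard error 0.18 (adjusted p = 0.328). *Grhl2*, which controls E-cadherin and claudins, had 473 to 576 and 809 to 894, a log2 difference of 0.68 with standard error 0.35 (adjusted p = 0.166). The 5 libraries of each group did not overlap for either gene, as for all 9 factors, whereas 19.3% of all genes were higher without overlap. The shared spread of the fit includes the wide VAD WT group, and with only the 2 groups compared the adjusted p was 0.000405 for *Elf3* and 4.76e-06 for *Grhl2*. The median log2 fold change of the 9 was 0.83, against 0.02 for all genes tested. Muscle markers, 7 of 8 called higher, summed to 10099 to 12019 for VAS WT against 27360.5 to 30673 for VAS *Stra6*-/-, and cone markers, 8 of 8 called lower, to 2729 to 3522 against 769 to 846. No marker of either list was at 0 throughout these 2 groups, and their part in the result was not tested.

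**Figure D2:**
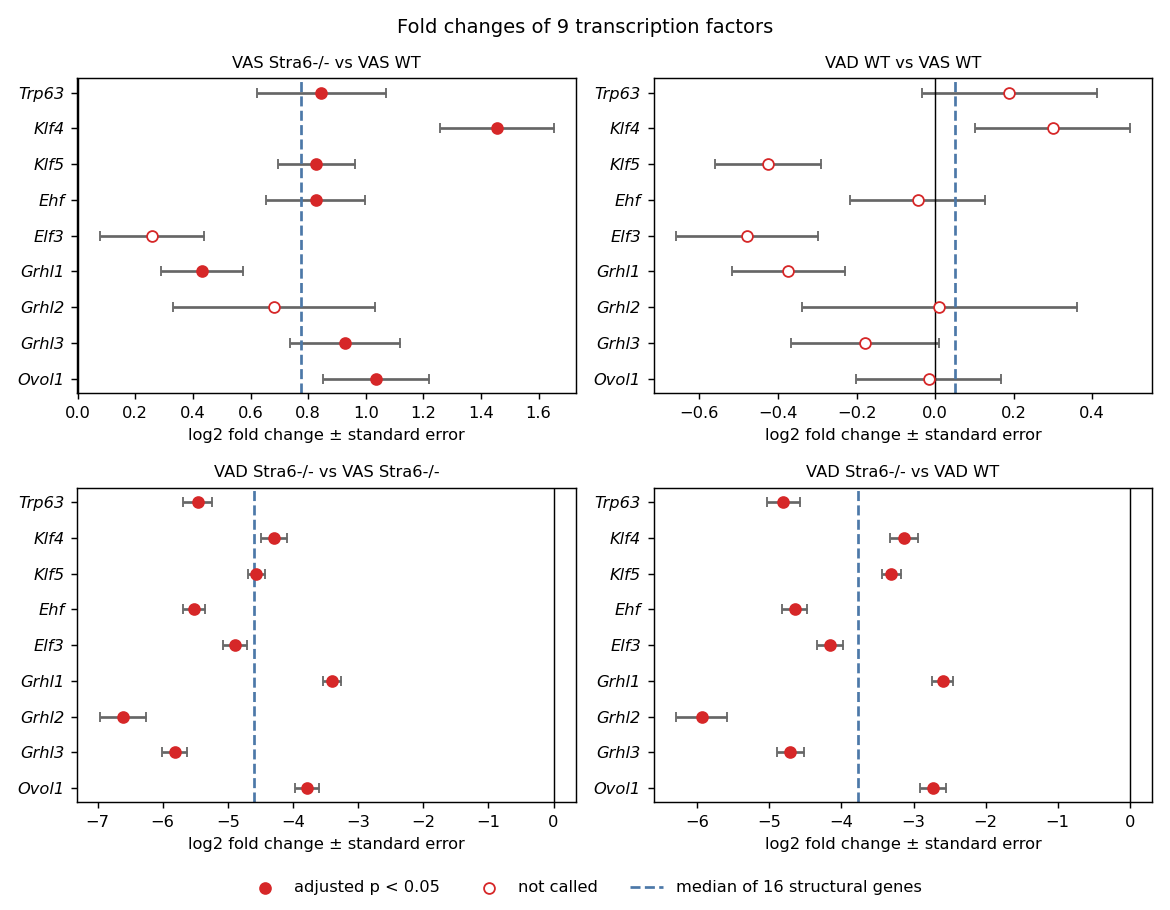
Log2 fold changes of the 9 factors with standard errors in 4 comparisons, filled where the adjusted p was under 0.05; the dashed line marks the median of 16 structural genes of stratified epithelium. On the VAS diet all 9 values are above 0, from 0.26 for Elf3 to 1.46 for Klf4, and in the lower panels all 9 are below 0.

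Of 16 structural genes of stratified epithelium, 9 were called higher and 1 lower in VAS *Stra6*-/-, so each gene was also measured relative to them. The reference is the mean log2 level of these 16, such as *Krt5*, *Krt14*, the desmosomal *Pkp1* and the hemidesmosomal *Col17a1*, and it was 12.30 ± 0.07 for VAS WT against 13.05 ± 0.02 for VAS *Stra6*-/- (SD, n = 5 each). On this scale *Klf4* was still higher without *Stra6*, by 0.71 (standard error 0.10, adjusted p = 1.25e-05), where 0.941% of all genes were called higher and 50.4% lower. Its level lay 0.16 to 0.28 below the reference in VAS WT and 0.44 to 0.54 above it in VAS *Stra6*-/-. *Elf3* was lower relative to the reference, at -0.49 (standard error 0.08, adjusted p = 2.02e-05), having been 0.97 to 1.05 above it in VAS WT and 0.46 to 0.60 above it in VAS *Stra6*-/-. *Grhl1* was lower too, at -0.32 (standard error 0.13, adjusted p = 0.0431), a call lost in 9 of the 20 fits without 1 library and with *Krt5* and *Krt14* alone as the reference (adjusted p = 0.541). The other 6, *Trp63*, *Klf5*, *Ehf*, *Grhl2*, *Grhl3* and *Ovol1*, changed by between -0.07 and 0.28 and were not called. With *Krt5* and *Krt14* alone as the reference, *Ehf* (0.28, adjusted p = 0.022) and *Ovol1* (0.49, adjusted p = 0.0133) were called higher as well, where 1.52% of all genes were.

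The deficient diet in WT mice gave no call among the 9, where 8.78% of all genes were called (3.29% higher and 5.5% lower), and 3 had an unadjusted p under 0.05 by limma. *Klf5* was nearest, with 957, 974, 926, 939 and 780.2 in VAS WT and 665, 525, 796, 710.4 and 732 in VAD WT, a log2 difference of -0.43 with standard error 0.13 (adjusted p = 0.0529). Its 2 groups overlapped by 1 library, and it was the 1 factor called lower by edgeR and by DESeq2 on recovered reads. *Elf3*, at -0.48 (standard error 0.18, adjusted p = 0.112), and *Grhl1*, at -0.37 (standard error 0.14, adjusted p = 0.118), were the other two with a low unadjusted p. The values of the remaining 6 factors ran from -0.18 for *Grhl3* to 0.30 for *Klf4*.

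These means cover 2 kinds of library. *Klf4* had 7520.4, 3184, 7074, 3200.1 and 7625 in VAD WT replicates 1 to 5, so that replicates 1, 3 and 5 lay above every VAS WT library and replicates 2 and 4 below every one. *Trp63* had 2653, 1075, 2667, 1246 and 2496 in the same order and split in the same way. *Ehf* had 5423, 2469, 4923, 2672 and 4644 and *Grhl2* 757, 318, 668, 276 and 1018, again with replicates 1, 3 and 5 above and 2 and 4 below all VAS WT libraries. *Elf3* differed from these 4 genes, with 10206, 4573, 9959, 4589 and 9817: replicates 1, 3 and 5 lay within the range of VAS WT and replicates 2 and 4 at less than any of them. *Grhl1* had 1661, 885, 1479.9, 911 and 1358, *Grhl3* had 974, 639.7, 908, 633 and 894 and *Ovol1* had 575, 448, 868, 434 and 819, with replicates 2 and 4 below every VAS WT library and below the other 3 VAD WT libraries. *Klf5* alone showed no such split, since replicate 4, with 710.4, lay between replicates 1 and 5. The plot of VAD WT libraries shows the same split of libraries in the mean of the reference genes, in *Krt5* and in *Krt12*, the keratin of the cornea, and the opposite split in *Rpe65*. The reference gene *Krt14*, which is not plotted, lay below the VAS WT mean in all VAD WT libraries. Its mean log2 difference was -0.39 in replicates 1, 3 and 5 and -0.72 in replicates 2 and 4.

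**Figure D3:**
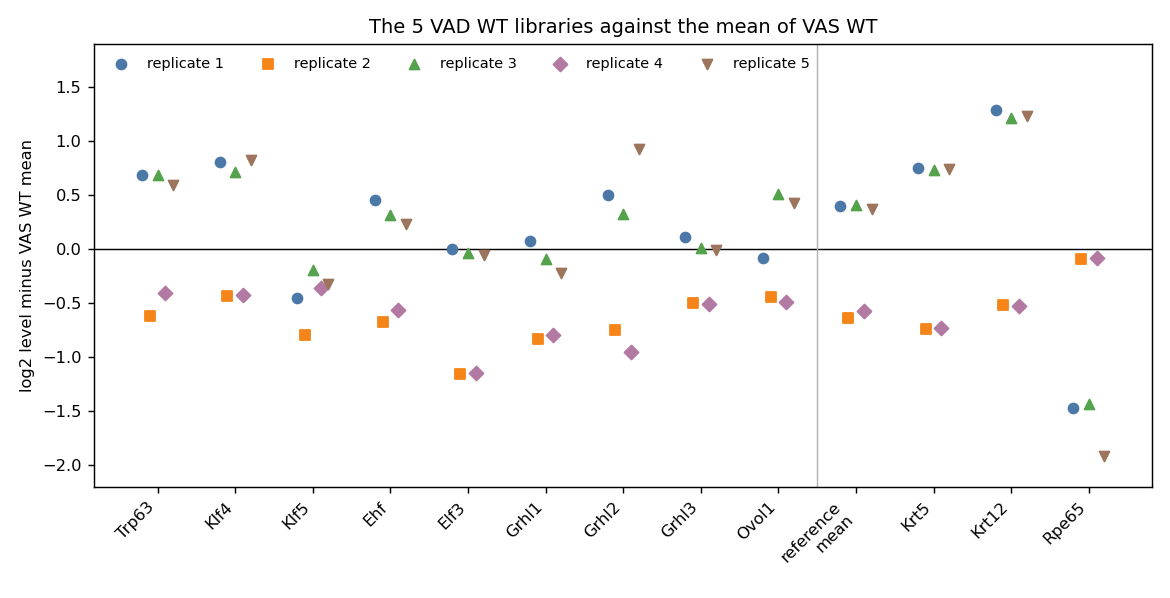
Log2 level of the 9 factors, the mean of the 16 reference genes, Krt5, Krt12 and Rpe65 in each of the 5 VAD WT libraries, minus the mean of VAS WT (line at 0). Replicates 2 and 4 lie below 0 for all 9 factors, replicates 1, 3 and 5 lie above 0 for Trp63, Klf4, Ehf and Grhl2, and Rpe65 is lowest in replicates 1, 3 and 5.

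Without VAD WT replicates 2 and 4 the fit called 3 of the 9 higher on the deficient diet, where 17.6% of all genes were called higher and 20.3% lower. These were *Klf4* by 0.78 (adjusted p = 1.05e-08), *Trp63* by 0.66 (adjusted p = 0.00189) and *Ehf* by 0.34 (adjusted p = 0.0102). Replicates 2 and 4 held the lowest VAD WT values of these 3 genes, so leaving them out raised the fold changes by the choice of libraries. The 3 calls are therefore no test of the diet. Relative to the reference genes, *Elf3* was lower in VAD WT, at -0.47 (standard error 0.08, adjusted p = 7.92e-04) with all libraries, where 1.56% of genes were called lower and 1.33% higher. Its value was -0.42 without replicates 2 and 4 (adjusted p = 5.75e-07), but with *Krt5* and *Krt14* alone as the reference it was -0.29 (adjusted p = 0.0536). No other factor was called relative to the 16 genes with all libraries, but with *Krt5* and *Krt14* alone *Klf4* was called higher, at 0.48 (adjusted p = 0.0173), as were 6.35% of all genes. Without replicates 2 and 4, *Klf5* (-0.72, adjusted p = 7.11e-05), *Grhl1* (-0.47, adjusted p = 0.00187) and *Klf4* (0.39, adjusted p = 0.000765) were called relative to the 16 genes as well. In that fit 44.5% of all genes were called lower and 3.64% higher, so that the lower calls are in the direction of many genes. The libraries of that fit were chosen in the same way, so its calls, that of *Elf3* included, are no test of the diet either.

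The libraries labelled VAD *Stra6*-/- had less RNA of all 9 factors than VAS *Stra6*-/- and less than VAD WT. These comparisons ask what the deficient diet changed without the transporter and what the transporter's loss changed on that diet. Sex-linked transcripts differed with the diet in the first comparison. *Ddx3y* had 0 to 1.02 in VAS *Stra6*-/- and 741 to 969.7 in libraries labelled VAD *Stra6*-/-, and *Xist* had 15320.2 to 18052 and 3569.8 to 4279.6. Diet and these transcripts therefore cannot be told apart there. By its normalized value, not taken relative to RPE markers, *Stra6* itself goes against the label here. Of all genes, 28.8% were called lower and 24.4% higher in the first and 29.6% and 26.2% in the second, with median log2 fold changes over all genes of -0.07 and -0.05. Over the 9 factors the medians were -4.89 and -4.15. No library labelled VAD *Stra6*-/- overlapped with either other group for any of the 9, while 26.8% and 19.0% of all genes were lower without overlap. The 2 comparisons share 1 group, so they are not independent of each other.

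*Grhl2* fell furthest. Its values in the libraries labelled VAD *Stra6*-/- were 10.1, 2.71, 19.4, 7.02 and 6.76, against 865, 876, 894, 809 and 848 in VAS *Stra6*-/-. This was a log2 difference of -6.61 with standard error 0.35 (adjusted p = 8.43e-13), and against VAD WT a log2 difference of -5.94 with standard error 0.35 (adjusted p = 5.22e-12). At so few counts the added 1 of the log scale makes the fold change smaller than the ratio of the values, and the ratio of the highest to the lowest of the 5 libraries was the largest of the 9 factors. *Grhl3* had 21.2, 38.8, 49.1, 18.4 and 29.6, with a log2 difference of -5.82 with standard error 0.19 (adjusted p = 3.06e-16) against VAS *Stra6*-/- and of -4.71 (standard error 0.19, adjusted p = 1.28e-14) against VAD WT. *Grhl1*, the other member of this family, fell least of all 9. Its values were 206, 199, 216, 239 and 155, a log2 difference of -3.40 with standard error 0.14 (adjusted p = 1.91e-14) against VAS *Stra6*-/- and of -2.60 (standard error 0.14, adjusted p = 1.72e-12) against VAD WT.

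The basal factor *Trp63* had 75.6, 89.3, 80.9, 53.5 and 44.0, 44.1-fold lower than VAS *Stra6*-/- on the log2(value + 1) scale, a log2 difference of -5.46 with standard error 0.22 (adjusted p = 1.18e-14). The ETS factor *Ehf* had 182, 116, 155, 144 and 168, a log2 difference of -5.52 with standard error 0.17 (adjusted p = 1.44e-16), and *Elf3* had 383, 436, 392, 414 and 429, a log2 difference of -4.89 with standard error 0.18 (adjusted p = 2.18e-15). *Elf3* thus had higher values than *Trp63* in each of these libraries, as it had in every other group. *Klf4* had the highest values of the 9 in these libraries, 664, 641, 558, 654 and 509.9, with a log2 difference of -4.29 with standard error 0.20 (adjusted p = 8.14e-14). In every other group *Elf3* had a higher mean than *Klf4*. *Klf5* had 72.5, 61.3, 47.1, 90.4 and 74.4, a log2 difference of -4.56 with standard error 0.13 (adjusted p = 6.73e-17), and *Ovol1* had 123, 59.5, 102, 80.8 and 96.4, a log2 difference of -3.78 with standard error 0.18 (adjusted p = 2.13e-13). Against VAD WT the same 5 genes *Trp63*, *Ehf*, *Elf3*, *Klf4* and *Klf5* gave log2 fold changes of -4.81, -4.65, -4.15, -3.13 and -3.31, and *Ovol1* one of -2.73. Without VAD WT replicates 2 and 4 the fall against VAD WT was larger for all 9, from -2.89 for *Grhl1* to -6.51 for *Grhl2*, and all 9 were still called, where 32.5% of all genes were called lower. Replicates 2 and 4 had the lower mean level for all 9, so the larger fall follows from the choice of libraries.

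The effect of diet differed between the genotypes as labelled for all 9, by the interaction term of the same fit, where 24.8% of all genes were called lower. It was least for *Grhl1*, at -3.03 (standard error 0.20, adjusted p = 9.48e-11), and greatest for *Grhl2*, at -6.62 (standard error 0.49, adjusted p = 5.27e-10). The epithelium reference genes and the cornea markers moved with the factors here, 16 of 16 and 7 of 7 called lower in both comparisons, and 11 of 12 RPE markers were called higher in both. Their part in the fall was not tested other than by the relative fit that follows.

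Relative to the 16 reference genes the 9 factors spread in both directions, as the reference genes did among themselves. The reference itself was at 13.05 ± 0.02 for VAS *Stra6*-/- and at 8.47 ± 0.10 for libraries labelled VAD *Stra6*-/- (SD, n = 5 each). A gene that is not of this epithelium therefore appears higher on this scale, and 97.3% of all genes were called higher and 0.803% lower. Of the factors, 5 were called lower, *Grhl2* at -2.03 (standard error 0.30, adjusted p = 1.66e-06), *Grhl3* at -1.23 (standard error 0.20, adjusted p = 7.13e-06), *Ehf* at -0.94 (standard error 0.10, adjusted p = 1.91e-08), *Trp63* at -0.88 (standard error 0.17, adjusted p = 5.41e-05) and *Elf3* at -0.31 (standard error 0.08, adjusted p = 6.63e-04). The 16 reference genes, measured against their own mean, had 7 called lower and 7 higher with values from -2.29 to 1.56, and 5 of the 7 cornea markers were called lower, so the values of the 9 lie within the range of other genes of this epithelium.

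*Grhl1* was higher relative to the reference, by 1.18 (standard error 0.13, adjusted p = 1.45e-08), as were *Ovol1* by 0.80 (adjusted p = 1.19e-04) and *Klf4* by 0.30 (adjusted p = 0.00998). Since nearly all genes were called higher on this scale, these 3 calls are in the direction of the background. *Klf5* moved with the reference, at 0.02 (standard error 0.18, adjusted p = 0.909). Against VAD WT the same 5 factors were called lower, from -0.33 for *Elf3* to -2.11 for *Grhl2*, where 1.03% of genes were, and the other 4 were called higher, where 96.1% were. With *Krt5* and *Krt14* alone as the reference the 5 lower calls were kept in both comparisons, whereas *Klf4* against VAS *Stra6*-/- was at 0.06 (adjusted p = 0.658) and *Klf5* against VAD WT at 0.31 (adjusted p = 0.115).

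**Figure D4:**
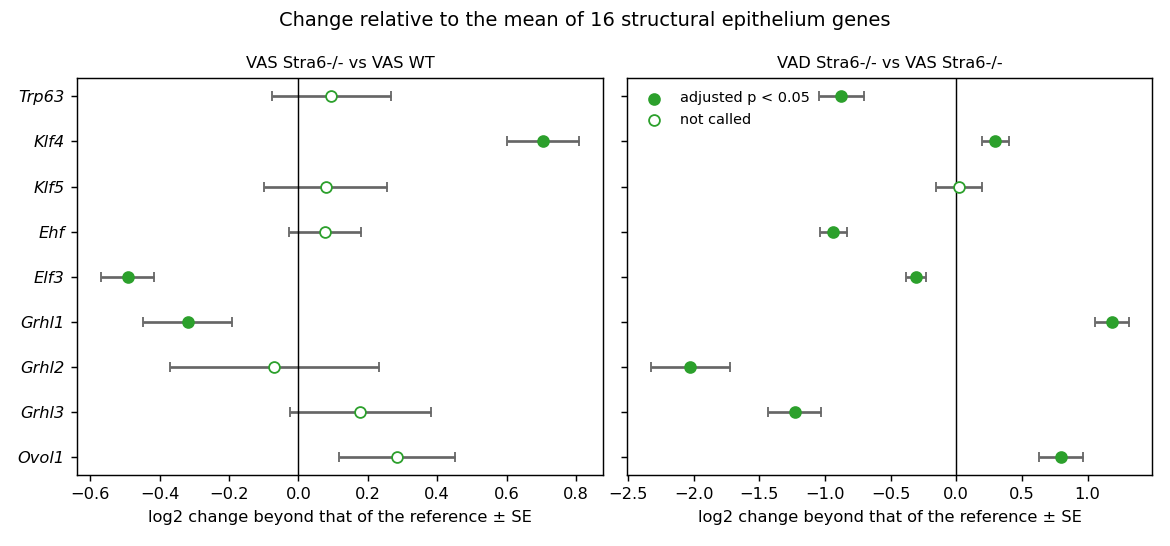
Log2 change of the 9 factors beyond that of the mean of 16 structural epithelium genes, with standard errors, filled where the adjusted p was under 0.05. On the VAS diet (left) Klf4 is at 0.71 and Elf3 at -0.49; in the libraries labelled VAD Stra6-/- against VAS Stra6-/- (right) the values spread from -2.03 for Grhl2 to 1.18 for Grhl1.

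The balance within families shifted with these changes, given here per kb and with no test. The ratio of *Grhl1* to *Grhl3* was 0.848 to 0.909 in VAS WT, 0.696 to 0.859 in VAD WT and 0.548 to 0.676 in VAS *Stra6*-/-. In the libraries labelled VAD *Stra6*-/- it was 2.21 to 6.52, so that per kb *Grhl1* was the higher of the pair there and the lower in every other library. That order rests on the lengths of all annotated exons, 5.539 kb for *Grhl1* and 2.789 kb for *Grhl3*. Before division by length *Grhl1* had the higher value in every library. The ratio of *Grhl1* to *Grhl2* was 3.71 to 4.00 in VAS *Stra6*-/- and 17.3 to 115 in the libraries labelled VAD *Stra6*-/-, which rests on the few *Grhl2* counts. The ratio of *Klf4* to *Klf5* was 7.71 to 8.93 in VAS WT, against 11.8 to 13.2 in VAS *Stra6*-/- and 7.68 to 19.3 in VAD WT. The libraries labelled VAD *Stra6*-/- ranged over 11.7 to 20.2. The ratio of *Elf3* to *Ehf* was 6.26 to 6.93 in VAS WT and lower, without overlap, in VAD WT (4.32 to 5.32) and VAS *Stra6*-/- (3.99 to 4.77), while the libraries labelled VAD *Stra6*-/- spread over 5.28 to 9.42.

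Genes that these factors are known to regulate were described by lists from general knowledge. Of 14 targets of p63, 8 were called higher and 0 lower in VAS *Stra6*-/-, with *Col17a1* at 1.41 (adjusted p = 1.78e-04) and *Krt14* at 0.62 (adjusted p = 2.79e-05). *Krt5* (0.47, adjusted p = 0.205) and *Perp* (0.23, adjusted p = 0.555) did not pass. Of 13 targets of the grainyhead-like factors, 5 were called higher and 0 lower, among them the claudin *Cldn4* at 0.95 (adjusted p = 3.73e-07), E-cadherin *Cdh1* at 0.71 (adjusted p = 1.70e-04) and the cross-linking enzyme *Tgm1* at 1.30 (adjusted p = 6.58e-10). Of 14 targets of KLF4, KLF5 and the ETS factors, 3 were called higher and 2 lower. The 2 lower ones were the mucosal keratins *Krt4* at -0.94 (adjusted p = 9.33e-08) and *Krt19*, while *Krt12* was at 0.76 (adjusted p = 0.0705). The 3 lists had median log2 fold changes of 0.52, 0.53 and 0.38, against 0.83 for the 9 factors. In this comparison 15.9% of all genes were called higher and 10.8% lower. *Krt5*, *Krt14*, *Perp*, *Itgb4*, *Col17a1* and *Trim29* are in the p63 list and in the reference, and *Ly6d* is in the reference and the KLF and ETS list.

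In VAD WT, where 3.29% of all genes were called higher and 5.5% lower, the p63 list had 2 called higher and 1 lower. The grainyhead-like list had 0 and 1, and the KLF and ETS list 0 and 3. The 3 of the last were *Krt4* (-1.89, adjusted p = 1.19e-11), *Krt19* and *Sprr2a1*, the last 2 named after their values were seen, as was *Krt19* above. In the libraries labelled VAD *Stra6*-/- against VAS *Stra6*-/-, 14 of 14, 12 of 13 and 12 of 14 were called lower, where 28.8% of all genes were. The medians of these lists were -4.26, -4.37 and -4.20. *Tgm1* fell by 1.5 there (adjusted p = 3.00e-12), less than any of the 9 factors, and against VAD WT it was at -0.12 (adjusted p = 0.267). The only grainyhead-like target called higher was *Cdh3*, which encodes P-cadherin and was named after its values were seen, at 1.64 (adjusted p = 6.98e-07). *Tgfbr2*, also named after its values were seen, was the KLF and ETS target called higher, at 0.88 (adjusted p = 0.00804).

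Other transcription factors gave a scale for the 9. Of 18 further factors of epithelia, such as *Hopx* and *Zfp750*, 5 were called higher and 2 lower in VAS *Stra6*-/-, where 15.9% and 10.8% of all genes were. Of those named here, *Hopx* (-0.08, adjusted p = 0.83), *Zfp750* (0.14, adjusted p = 0.619) and *Foxq1* (-0.02, adjusted p = 0.934) did not pass. The difference between these factors and the 9 was not tested. In the libraries labelled VAD *Stra6*-/-, 17 of the 18 were called lower than VAS *Stra6*-/- and 16 than VAD WT, with medians of -3.33 and -3.17. Of all genes, 28.8% and 29.6% were called lower there.

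The relatives of the 9 by DNA-binding domain did not show one direction, and neither did all genes. Of 25 further p53, KLF, ETS and grainyhead-related genes, 10 were called higher and 3 lower in VAS *Stra6*-/-, where 15.9% and 10.8% of all genes were. *Ets2* rose by 1.23 (adjusted p = 3.76e-11) and *Klf6* by 0.63 (adjusted p = 5.95e-07), and the endothelial *Klf2* fell by 0.64 (adjusted p = 0.0093). In the libraries labelled VAD *Stra6*-/-, 4 were called higher and 14 lower against VAS *Stra6*-/-, with a median of -0.27, where 24.4% and 28.8% of all genes were. Against VAD WT, 8 were called higher and 9 lower, where 26.2% and 29.6% of all genes were, with a median of 0.08 and *Ubp1* at -0.73 (adjusted p = 4.35e-06). Of 7 factors of mesenchymal state, 1 was called higher and 2 lower against VAD WT, *Zeb2* at 1.23 (adjusted p = 7.31e-05), *Snai2* at -1.17 (adjusted p = 8.86e-05) and *Twist1* at -0.35 (adjusted p = 0.03). Against VAS *Stra6*-/-, 5 of the 7 were called higher and 1, *Snai2*, lower.

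**Figure D5:**
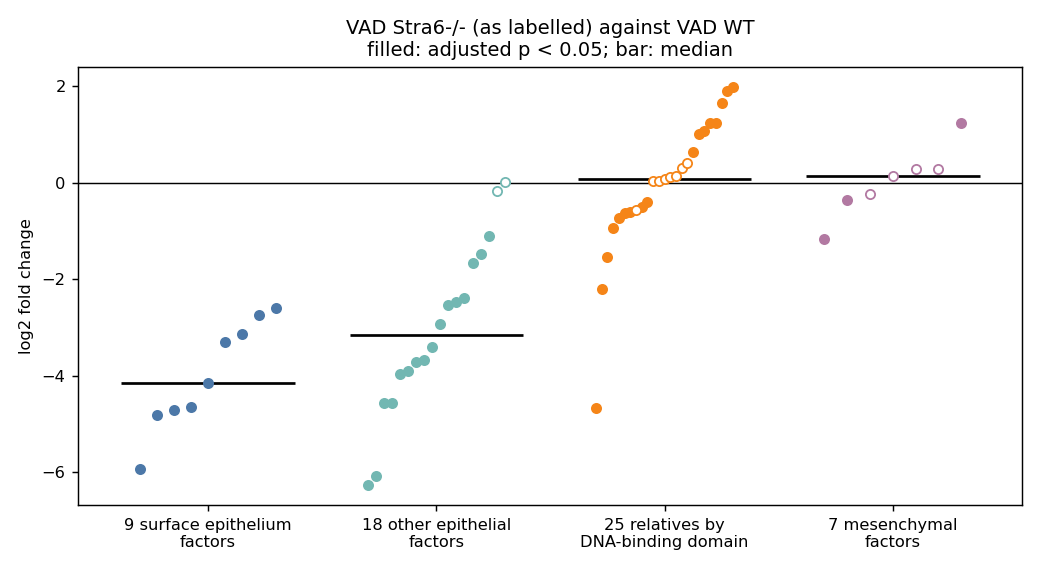
Log2 fold changes of 4 lists of transcription factors in the libraries labelled VAD Stra6-/- against VAD WT; points are genes, filled where the adjusted p was under 0.05, and bars are medians. The 9 surface epithelium factors lie between -5.94 and -2.60, and the medians of the 25 relatives (0.08) and the 7 mesenchymal factors (0.15) lie near 0.

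The 9 genes rose and fell together across the 20 libraries, which is given as a description. Pearson's r between pairs of them was 0.954 to 0.993 over 20 libraries, and 0.641 to 0.965 over the 15 libraries without those labelled VAD *Stra6*-/-. With the group means taken out the 36 pairs had a median r of 0.567, and with VAD WT left out as well a median of -0.09. The pairs then ran from -0.84 to 0.90. Of 13511 genes with a mean of at least 50, those most like the mean of the 9 over 20 libraries were *Tmprss11g*, *Pkp1*, *Gm9573*, *Ppl*, *AI661453*, *Krt6a*, *Lmo7* and *Sdc1*, all with r above 0.99, as 65 genes had. Among the other listed transcription factors, *Zfp750* (0.980) and *Foxq1* (0.980) were among those most like the 9, and *Etv5* (-0.93), *Zeb2* (-0.87) and *Klf15* (-0.82) least. Over the 15 libraries without those labelled VAD *Stra6*-/-, r was 0.615 for *Foxq1* and 0.05 for *Klf15*. The libraries share depth and tissue composition, and no p is given.

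Reads of antisense genes cannot be told apart for 3 of the 9, since the strand setting of the counting is not stated in the sources used here. Exons of *Elf3* share bases with *Gm26642*, those of *Grhl2* with *Gm16136*, and those of *Ovol1* with *AC126029.1* and *Gm31166*, all on the opposite strand. In GRCm38 the 9 genes lie apart: *Trp63* on chromosome 16 from 25683763 to 25892102, *Klf4* on chromosome 4 from 55527143 to 55532466, *Klf5* on chromosome 14 from 99298691 to 99315036, *Ehf* on chromosome 2 from 103263433 to 103303278, *Elf3* on chromosome 1 from 135253575 to 135258568, *Grhl1* on chromosome 12 from 24572283 to 24617391, *Grhl2* on chromosome 15 from 37233036 to 37363569, *Grhl3* on chromosome 4 from 135541888 to 135573630 and *Ovol1* on chromosome 19 from 5549136 to 5560646. *Klf4* and *Grhl3* are the only 2 on 1 chromosome.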

How the data were processed

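RNA of RPE and choroid from 20 mice was sequenced as paired-end poly(A) libraries, and the authors aligned reads to GRCm38 with STAR (2.5.3a), counted genes with RSEM (1.2.30) and normalized them with DESeq2 (1.32.0), by the study's methods and the submitters' processing notes. The deposited signal is a gene count divided by 1 size factor per library. Whole reads were recovered from its steps for 19 libraries (100% of values within 0.01 of a whole number). For VAD *Stra6*-/- replicate 1 recovery was not claimed, and this library is left out of the count tests only. Depth was 13331903 to 21878614 reads per library, so that the precision of low genes such as *Grhl2* is limited by counting.

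Groups were taken from the labels. Values were tested as log2(value + 1) with limma (3.58.1, R 4.3.3), 1 mean per group over all 20 libraries, a trended prior variance and Benjamini-Hochberg adjustment over 18807 genes with at least 5 reads in total, and a gene was called at an adjusted p under 0.05. Fold changes on this scale understate those of low genes. Fits relative to the epithelium subtracted the mean log2 level of 16 reference genes in each library. The fits were tested on simulated data. edgeR (4.0.16) and DESeq2 (1.42.0) on recovered reads, other pseudocounts, filters, scalings, sample sets and left-out libraries were the alternatives. Promoter sequences were RefSeq's. From each list at most the 6 genes of highest mean value, and as most like the 9 the 8 genes of highest r, were open to naming. The members and lists were chosen with earlier results of these data known. That the 5 samples of a group are separate mice comes from the study's description, and the tests measure spread between libraries.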

Additional observations from a re-analysis of the deposited data

Results flagged for a closer look

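In VAS WT, *Klf5* of replicate 5 stood apart at a normalized value of 780.2, the lowest of 5, with the next library at 926. Its gap was 0.75 of the group's range, above Dixon's 95% critical value of 0.71. It was 1 of 36 groups of 5 values that stood out in this way, and chance alone gives about 1 in 20. Without this library *Klf5* was called lower in VAD WT (-0.48, adjusted p = 0.046).

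The effect of the diet differed between the genotypes as labelled for all 9 factors, by the interaction term of the limma fit. It was -5.65 for *Trp63* (standard error 0.32, adjusted p = 6.07e-12), -4.59 for *Klf4* (standard error 0.28, adjusted p = 2.12e-11) and -4.14 for *Klf5* (standard error 0.19, adjusted p = 2.80e-13). For the ETS factors it was -5.48 for *Ehf* (standard error 0.24, adjusted p = 1.56e-13) and -4.41 for *Elf3* (standard error 0.26, adjusted p = 9.90e-12). For the grainyhead-like factors it was -3.03 for *Grhl1*, -6.62 for *Grhl2* and -5.64 for *Grhl3* (adjusted p = 9.48e-11, 5.27e-10 and 4.53e-13), and for *Ovol1* it was -3.77 (adjusted p = 1.55e-10). In all 5 libraries labelled VAD *Stra6*-/- each of the 9 was below every other library. The normalized values of *Stra6* and of the sex-linked transcripts differed between these groups, and their part in the interaction was not tested.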

How the results depend on the processing

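Of the fold changes of the 9 factors refitted under the alternatives, 1299 kept their direction and their side of the threshold, 17 passed it newly, 7 no longer passed it and 18 changed sign, all of the last on the deficient diet in WT. The 7 were all *Grhl1* in VAS *Stra6*-/-, each without 1 VAS library. In the 3 comparisons that hold the libraries labelled VAD *Stra6*-/-, all 9 factors were called lower in every fit that left out 1 library and with edgeR and DESeq2.

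In VAD WT against VAS WT, 1 factor was called with a pseudocount of 4, with a mean value of at least 10, with edgeR and with DESeq2, *Klf5* in each. Leaving out 1 library gave 0 to 2: without VAD WT replicate 1 these were *Elf3* (-0.60) and *Grhl1* (-0.49), and *Klf5* was called without VAS WT replicate 5, VAD WT replicates 3 or 4, or the libraries labelled VAD *Stra6*-/- replicates 3 or 4. Without VAD WT replicates 2 and 4 together 3 were called. Relative to the reference genes, 1 to 3 factors were called without 1 library and 4 without those 2. *Ehf* changed sign to 0.34 without those 2, and to 0.029 with edgeR and 0.029 with DESeq2, and ran from -0.17 to 0.11 without 1 library. *Ovol1* changed sign to 0.28, 0.038 and 0.039 in the same settings and ran from -0.15 to 0.10. *Grhl3* changed sign to 0.037 without those 2, and *Grhl2* ran from -0.22 to 0.25 without 1 library. In VAS *Stra6*-/- against VAS WT, 2 factors had a log2 fold change beyond 1 and 0 beyond 2. The causes of these shifts were not tested.

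Over all genes, VAS *Stra6*-/- against VAS WT gave 8208 calls with only the 2 groups compared, 7524 without VAD WT replicates 2 and 4, 926 beyond a log2 fold change of 1 and 207 beyond 2. VAD WT against VAS WT gave 639, 7124, 328 and 77 in the same order, and 1260 to 2651 without 1 library. Beyond 1 and 2 the libraries labelled VAD *Stra6*-/- gave 4488 and 1707 calls against VAS *Stra6*-/-, 5064 and 1952 against VAD WT, and 4613 and 1960 for the interaction. Same-numbered samples did not deviate together (r from -0.13 to 0.09 over 30 pairs, 0 over 0.1). With the replicate number as a block, 4820, 1446, 9937, 10423 and 8193 genes were called in the 5 comparisons, and 7, 0, 9, 9 and 9 of the 9 factors, so the block changed no call of a factor.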
